A study of Solanum lycopersicum with 29 samples.

Results

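The tapetal regulators are 6 transcription factor genes chosen by their tomato gene identifiers: MS10 (Solyc02g079810, chromosome 2), TDF1 (Solyc03g059200, chromosome 3), AMS (Solyc08g062780, chromosome 8), MS32 (Solyc01g081100), MYB80 (Solyc10g005760, chromosome 10) and MS1 (Solyc04g008420, chromosome 4). Of these 6 genes, 5 were matched among the 35092 genes counted, and MS32 was not analysed here. The genes were named by identifier, with earlier results of these data known.

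The tapetum is the innermost layer of the anther wall. It feeds the developing microspores and makes the precursors of sporopollenin, the polymer of the outer pollen wall (exine), before it degenerates. In Arabidopsis the regulators act in an ordered cascade: DYT1, a bHLH factor whose tomato counterpart is MS10, lies upstream of the MYB factor TDF1, which lies upstream of the bHLH factor AMS. The MYB factor MYB80 (also called MYB103) and the PHD-finger protein MS1 act late, around microspore release and exine formation. Mutants of these genes are male sterile in Arabidopsis, and loss of MS10 makes tomato male sterile.

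RNA-seq was performed on anthers of tomato cv. Micro-Tom at the polarized microspore stage, 6 anthers pooled per library, in 29 libraries of 8 groups. The lines were 35S::nahG, in which the constitutive viral 35S promoter drives a bacterial salicylate hydroxylase that removes salicylic acid, Never ripe, an ethylene-insensitive receptor mutant, 35S::asCCD7, which carries an antisense construct against the strigolactone biosynthesis gene CCD7, and the wild type (WT). Each line was sampled under long-term mild heat (LTMH, 34°C by day and 28°C by night at 68% relative humidity, 8 days) and under control temperature (CT, 25°C by day and 19°C by night at 50% relative humidity). There were 3 LTMH libraries of 35S::nahG, Never ripe and WT, 4 of 35S::asCCD7, and 4 CT libraries of every line. How many transformation events stand behind each transgenic line is not given in the sources used here. For Never ripe and 35S::asCCD7 nothing says that the libraries came from separate plants, so their p-values measure the spread between libraries, which may be technical.

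Counted reads ranged between 32273189 and 42353956 per library (median 34474482), and no pair of libraries held identical counts. The 10 most abundant genes took 5.68% to 12.1% of the reads. The 5 B- and C-class floral identity genes that mark stamens (TAP3, TM6, SlGLO1, TPI and TAG1) summed to between 2372 and 5190 CPM (reads per 1000000 counted) over all libraries, and the 4 35S::nahG CT libraries (2372 to 2722 CPM) lay below every other library (lowest 3053 CPM). Several libraries stood apart from the rest of their group for the tapetal regulators: WT CT replicate 3, Never ripe CT replicate 1, 35S::asCCD7 CT replicates 1 and 4, 35S::asCCD7 LTMH replicate 2, Never ripe LTMH replicate 4 and WT LTMH replicate 4. In pooled anthers, fewer tapetum cells and less RNA per cell cannot be told apart.

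Compared per gene length, AMS had by far the highest level of the 5 genes, and it ranked first by FPKM, which scales fragment counts by gene length and library depth, in all 29 libraries. In 35S::nahG CT anthers AMS averaged 751 ± 68.6 FPKM and MS1 averaged 113 ± 15.2 FPKM, against 407 ± 176 FPKM for AMS and 7.54 ± 6.84 FPKM for MS1 in WT CT anthers (SD, n = 4 each). The remaining 3 genes were low. Outside 35S::nahG CT, MS1 was low as well, with group means of 0.245 to 13.6 FPKM. In WT CT anthers MYB80 averaged 2.63 ± 1.35 FPKM, TDF1 1.32 ± 0.896 FPKM and MS10 12.7 ± 19.8 FPKM, the last value resting on a single library (SD, n = 4).

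**Figure D1:**
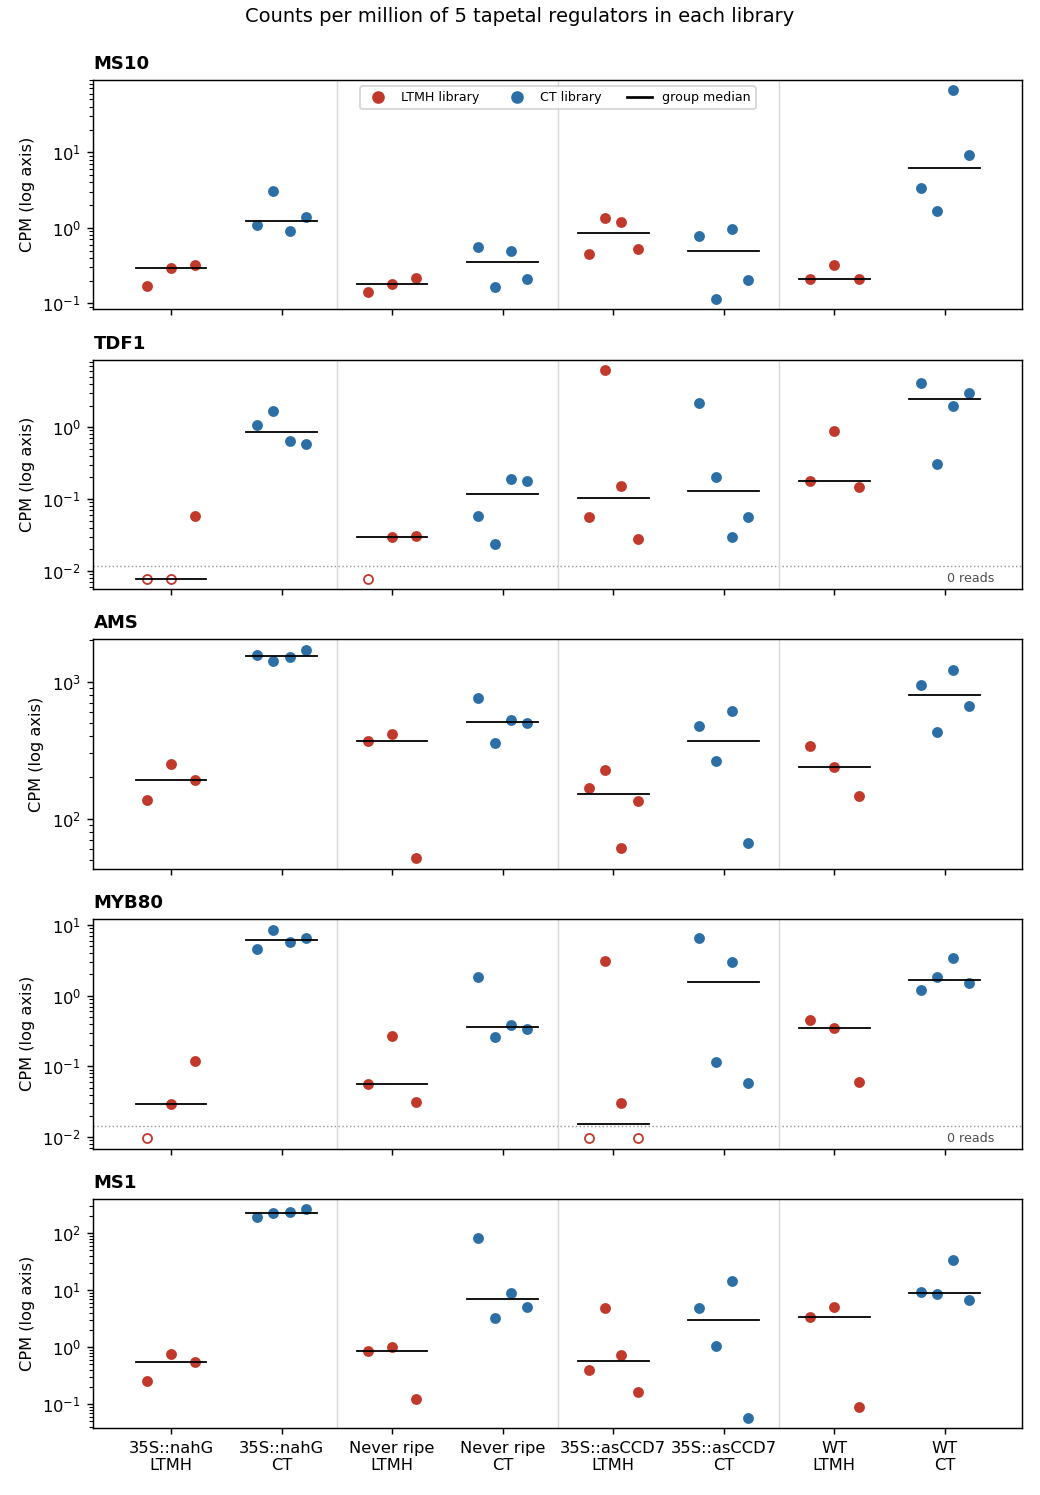
CPM (log axis) of MS10, TDF1, AMS, MYB80 and MS1 in each library of the 8 groups. Points are libraries (red, LTMH, and blue, CT), black lines are group medians, and open points below the dotted line are libraries with 0 reads. The 4 35S::nahG CT libraries sit together at 195 to 261 CPM of MS1, above every other library.

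MS10, the most upstream gene, held at most 110 reads in every library other than WT CT replicates 3 and 4. The 35S::nahG anthers held 6, 10 and 11 MS10 reads per library in LTMH, against 35, 105, 31 and 47 reads in CT. Never ripe anthers held 5, 6 and 7 reads in LTMH, against 19, 7, 18 and 8 reads in CT. The 35S::asCCD7 anthers held 16, 46, 39 and 19 reads in LTMH, against 26, 4, 33 and 7 reads in CT. In both of these lines the LTMH and CT ranges overlapped, whereas in 35S::nahG they did not. WT anthers held 7, 11 and 7 reads in LTMH, against 110, 59, 2291 and 300 reads in CT. Every WT CT library was thus above every WT LTMH library, and WT CT replicate 3, with 66.4 CPM, lay far above the other WT CT libraries (1.67 to 9.08 CPM). By median the order of the groups was WT CT (6.21 CPM), 35S::nahG CT (1.24 CPM), 35S::asCCD7 LTMH (0.857 CPM), 35S::asCCD7 CT (0.493 CPM), Never ripe CT (0.348 CPM), 35S::nahG LTMH (0.290 CPM), WT LTMH (0.209 CPM) and Never ripe LTMH (0.178 CPM). Each group overlapped its neighbour in that order.

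TDF1, the MYB factor that acts after DYT1 in Arabidopsis, had the fewest reads. The 35S::nahG libraries held 0, 0 and 2 TDF1 reads in LTMH, against 35, 58, 22 and 20 in CT. Never ripe anthers held 0, 1 and 1 reads in LTMH, against 2, 1, 7 and 7 in CT, so that TDF1 was close to the limit of detection in Never ripe at both temperatures. A count of 3 reads, taken as the limit per library, corresponds to 0.087 CPM at the median depth. The 35S::asCCD7 anthers held 2, 216, 5 and 1 reads in LTMH, against 71, 7, 1 and 2 in CT. A single library thus carried most TDF1 reads at each temperature in that line, with 6.25 CPM in LTMH replicate 2 and 2.14 CPM in CT replicate 1. WT anthers held 6, 31 and 5 reads in LTMH, against 135, 11, 69 and 99 in CT, and the ranges overlapped through CT replicate 2. By median, WT CT (2.50 CPM) and 35S::nahG CT (0.865 CPM) were the highest groups, and 35S::nahG LTMH (median 0) the lowest. No pair of neighbouring groups was separated.

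AMS, the bHLH factor at the centre of the cascade, was abundant in every library. The 35S::nahG anthers had 136, 251 and 191 CPM of AMS in LTMH, against 1557, 1423, 1499 and 1705 CPM in CT. Never ripe anthers had 366, 412 and 51.4 CPM in LTMH, against 756, 358, 522 and 498 CPM in CT. The lowest Never ripe LTMH value belonged to replicate 4, whose summed level of the microspore and pollen genes was also low, at 80.4 CPM against 254 and 268 CPM in the other Never ripe LTMH libraries. The 35S::asCCD7 anthers had 168, 228, 60.9 and 134 CPM in LTMH, against 476, 264, 611 and 66.4 CPM in CT. Here the ranges overlapped through CT replicate 4. WT anthers had 338, 239 and 146 CPM in LTMH, against 941, 429, 1209 and 667 CPM in CT, without overlap. The 35S::nahG CT group (median 1528 CPM) lay above all other groups without overlap, followed by WT CT (804 CPM), Never ripe CT (510 CPM), 35S::asCCD7 CT (370 CPM), Never ripe LTMH (366 CPM), WT LTMH (239 CPM), 35S::nahG LTMH (191 CPM) and 35S::asCCD7 LTMH (151 CPM). From WT CT downward each group overlapped the next. The spread between replicates was much smaller in 35S::nahG CT, with a coefficient of variation of 7.71%, than in WT CT, with 41.6% (n = 4 each).

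MYB80, a late MYB factor that AMS activates in Arabidopsis, showed the same separation of the 35S::nahG temperatures at a much lower level. The 35S::nahG libraries held 0, 1 and 4 MYB80 reads in LTMH, against 149, 297, 195 and 220 in CT. Never ripe anthers held 2, 9 and 1 reads in LTMH, against 63, 11, 14 and 13 in CT. At their depths LTMH replicate 3 (0.268 CPM) slightly exceeded CT replicate 2 (0.260 CPM), and CT replicate 1 lay apart with 1.82 CPM. The 35S::asCCD7 anthers held 0, 106, 1 and 0 reads in LTMH, against 218, 4, 101 and 2 in CT. Replicate 2 thus decided the LTMH group, and replicates 1 and 3 held most reads of the CT group. WT anthers held 15, 12 and 2 reads in LTMH, against 40, 65, 118 and 50 in CT, without overlap. The 35S::nahG CT group (median 6.11 CPM) was above WT CT (1.67 CPM) without overlap, and all lower neighbours overlapped.

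MS1, the PHD-finger regulator of late tapetum function, had reads in every library, with levels between 0.0574 and 261 CPM. The 35S::nahG anthers had 0.254, 0.754 and 0.559 CPM of MS1 in LTMH, against 195, 223, 234 and 261 CPM in CT. Never ripe anthers had 0.858, 1.01 and 0.124 CPM in LTMH, against 83.2, 3.31, 9.07 and 5.06 CPM in CT, where replicate 1 stood far above the other libraries. The 35S::asCCD7 anthers had 0.393, 4.86, 0.731 and 0.166 CPM in LTMH, against 4.86, 1.03, 14.2 and 0.0574 CPM in CT. The highest LTMH library was again replicate 2, and the lowest CT library again replicate 4. WT anthers had 3.35, 4.99 and 0.0893 CPM in LTMH, against 9.38, 8.44, 34.0 and 6.75 CPM in CT. These ranges did not overlap, and WT LTMH replicate 4 held only 3 reads. By median, 35S::nahG CT (229 CPM) was followed, without overlap, by WT CT (8.91 CPM). The lowest medians were those of 35S::nahG LTMH (0.559 CPM) and 35S::asCCD7 LTMH (0.562 CPM). From WT CT downward each group overlapped the next.

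The response to LTMH was tested within each line by edgeR's quasi-likelihood test over all genes that passed the filter on low counts. A gene was called changed at a Benjamini-Hochberg adjusted p below 0.05 and a change of at least 1.5-fold. Values below are log2 fold changes of LTMH over CT with their SE.

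In 35S::nahG anthers all 5 regulators fell in LTMH, where 27.9% of the 20468 genes tested were called (13.3% lower). MS1 fell by 8.86 ± 0.250 on the log2 scale (edgeR adjusted p = 3.64e-08), MYB80 fell by 7.02 ± 0.493 (4.22e-06) and TDF1 by 5.52 ± 0.803 (0.000394). AMS fell by 3.09 ± 0.208 (3.36e-06) and MS10 by 2.69 ± 0.508 (0.00183). The LTMH groups of TDF1 and MYB80 held only 2 and 5 reads in total, against 135 and 861 in CT. From the summed reads, TDF1 was 52.1-fold lower (95% exact interval 14.1 to 434) and MYB80 133-fold lower (56.7 to 410) in LTMH, intervals that cover counting error only. All 5 calls held without any 1 of the 7 libraries and in every other setting tried. The stamen identity genes moved with this comparison. Their summed level was 3989 to 4192 CPM in LTMH against 2372 to 2722 CPM in CT, 2 of 5 were called higher (TPI, 0.90 ± 0.0640, and TAG1, 1.11 ± 0.0569) and all 5 had positive values. Their part in the regulators' differences was not tested.

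In Never ripe anthers 1 of the 3 regulators tested was called, MS1, among 9% of the 20244 genes tested (4.32% lower). It fell by 5.39 ± 1.52 on the log2 scale (edgeR adjusted p = 0.0426). Without CT replicate 1, which held 2880 of the 3549 MS1 reads in that group, it fell by 3.27 (adjusted p = 0.025). The call was lost without CT replicate 3 or 4 or any 1 LTMH library, at adjusted p between 0.0548 and 0.111. MYB80 had a value of -2.67 ± 1.00 (adjusted p = 0.0973) and did not pass the filter without CT replicate 1, 3 or 4. AMS had one of -1.10 ± 0.633 (0.246), which was -0.60 (0.138) without LTMH replicate 4. MS10 and TDF1 did not pass the filter. DESeq2 called MYB80 (0.0219) and gave MS1 no adjusted p. TDF1 had 2 summed reads in LTMH against 17 in CT, 5.63-fold lower with an interval of 1.34 to 50.2 for counting error only. By edgeR, TDF1 was not called without the filter (0.16) or with all 8 groups in 1 fit (0.509).

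In 35S::asCCD7 anthers edgeR called 0 of the 3 regulators tested, against 7.92% of the 20175 genes tested. At an unadjusted p below 0.05 there was 1, AMS, and DESeq2 called 0 of 4. AMS had a value of -1.40 ± 0.619 (adjusted p = 0.156), MS1 one of -1.86 ± 1.30 (0.353) and MS10 one of 0.61 ± 0.654 (0.55). The value of AMS lay within 1 SE of that in WT anthers (-1.83), so that a change of that size remained possible. AMS was called without CT replicate 4 (-1.75, adjusted p = 0.0324), and the value of MS1 was -3.69 (0.131) without LTMH replicate 2 and -0.52 (0.834) without CT replicate 3.

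In WT anthers 4 of the 5 regulators fell in LTMH, where 17.9% of the 20314 genes tested were called (8.83% lower). MS10 fell by 6.43 ± 1.69 on the log2 scale (edgeR adjusted p = 0.0182), MYB80 by 2.87 ± 0.587 (0.00637), TDF1 by 2.58 ± 0.874 (0.0478) and AMS by 1.83 ± 0.406 (0.00914). MS1 had a value of -2.47 ± 0.911 (0.0636), or -1.60 (0.145) without WT CT replicate 3, and was not called. Without WT CT replicate 3, MS10 fell by 4.29 (0.0038), and TDF1 was no longer called (-2.63, 0.0664). The MS10 call was lost without any 1 LTMH library (0.0622 to 0.068), and the TDF1 call without any 1 of 5 libraries, LTMH replicates 2 (0.136) and 4 (0.144) among them. Only MYB80 and AMS were called without any 1 of the 7 libraries. TDF1 and MYB80 were not called with all 8 groups in 1 fit (0.135 and 0.11).

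**Figure D2:**
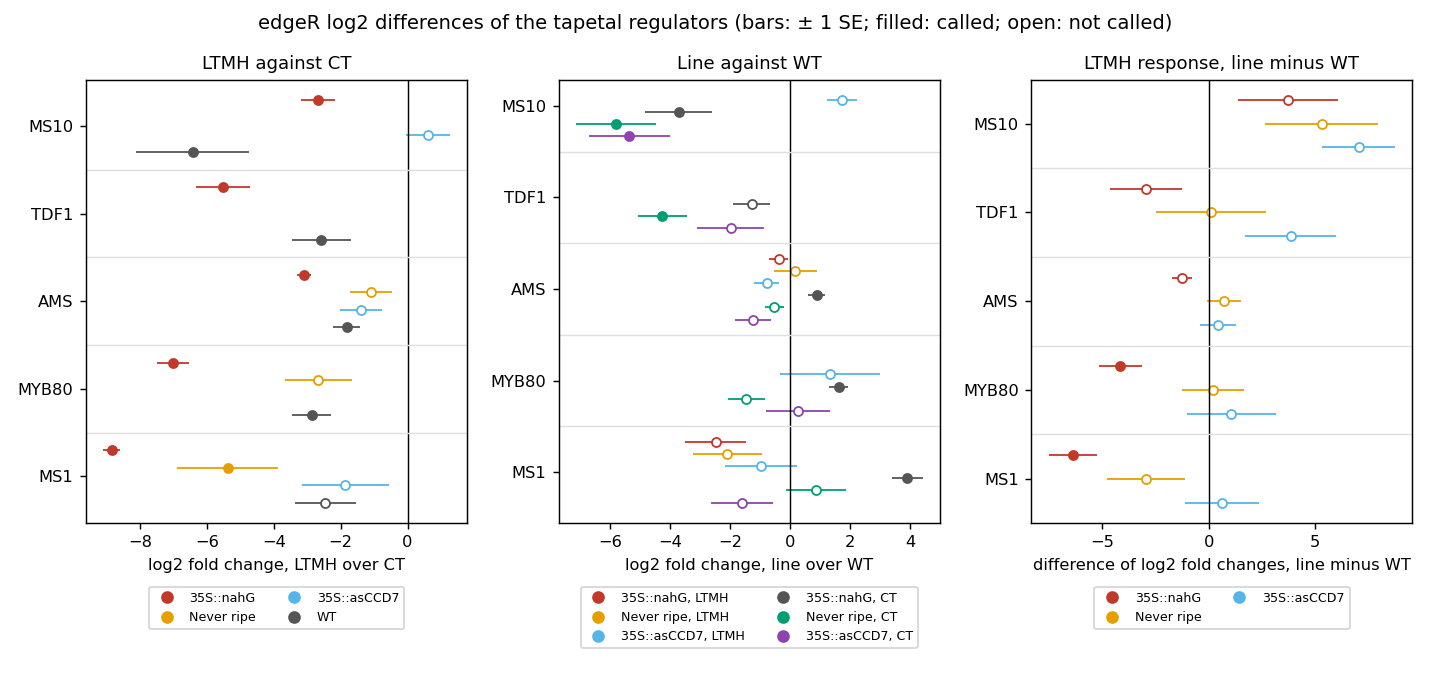
Log2 differences of the 5 regulators from edgeR, with LTMH over CT in each line (left), each line over WT within a temperature (middle) and the difference of LTMH responses, line minus WT (right). Points are estimates, bars are 1 SE, filled points are called and open points are not, and genes below the filter are not drawn. All 5 points of 35S::nahG in the left panel are filled and lie between -8.86 and -2.69.

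The lines were next compared with WT within each temperature. These comparisons share their WT libraries, so that a WT library that stands apart enters all of them. Where groups are said not to overlap, this is a description. The share of all genes tested with such groups was not counted.

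In CT, 4 of the 5 regulators differed between 35S::nahG and WT anthers, in opposite directions along the cascade, among 16.5% of the 20081 genes tested. The 3 later-acting genes were higher in 35S::nahG, against 7.88% of all genes tested that were higher. MS1 was higher by 3.91 ± 0.508 on the log2 scale (edgeR adjusted p = 0.000444), MYB80 by 1.62 ± 0.318 (0.00381) and AMS by 0.88 ± 0.275 (0.0313). In all 3 genes each 35S::nahG CT library was above each WT CT library. The most upstream gene, MS10, was lower (-3.72 ± 1.12, 0.0274), and TDF1 was not called (-1.28 ± 0.616, 0.134), except without WT CT replicate 2 (-1.65, 0.00904). Without WT CT replicate 3 the MS10 value was -1.56 (0.0614), whereas MS1 (4.79, 6.96e-07), MYB80 (2.04, 0.000296) and AMS (1.17, 0.00476) were then further above WT. The AMS call was lost without WT CT replicate 4 (0.0878) or 35S::nahG CT replicate 1, 3 or 4 (0.057 to 0.071), the MS10 call also without 35S::nahG CT replicate 1, 3 or 4 (0.0706 to 0.074), and AMS and MYB80 with all 8 groups in 1 fit (0.223 and 0.237). The stamen identity genes were at 2372 to 2722 CPM in 35S::nahG CT against 3053 to 3636 CPM in WT CT, with negative values for all 5 and 1 called lower, TAG1 (-0.61 ± 0.0832). Their part in these differences was not tested either.

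Never ripe and WT anthers differed in CT in the 2 upstream genes, among 10.6% of the 19974 genes tested (4.32% lower). Both were lower in Never ripe, MS10 with a log2 value of -5.80 ± 1.34 (edgeR adjusted p = 0.0115) and TDF1 with one of -4.26 ± 0.810 (0.0044). Both calls held without any 1 of the 8 libraries. Without WT CT replicate 3 the MS10 value was -3.65 (0.00373). For both genes every Never ripe CT library lay below every WT CT library. The later genes were not called by edgeR, with values of -0.52 ± 0.324 for AMS (0.266), -1.45 ± 0.615 for MYB80 (0.11) and 0.86 ± 0.995 for MS1 (0.564). Without Never ripe CT replicate 1, MYB80 was called lower (-2.54, 0.00391), as it was by DESeq2 with all libraries (0.0478), and the MS1 value was -1.27 (0.171). The MS1 value was 1.71 (0.276) without WT CT replicate 3.

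In 35S::asCCD7 anthers in CT only MS10 of the 5 regulators was called against WT, among 3.94% of the 20054 genes tested (1.61% lower). Its value was -5.36 ± 1.34 on the log2 scale (edgeR adjusted p = 0.0437), and each 35S::asCCD7 CT library lay below each WT CT library. This call held only when WT CT replicate 2 was the library left out. Without WT CT replicate 3 the value was -3.21 (0.0643), and without each of the other 6 libraries the adjusted p was between 0.0538 and 0.123. TDF1 had a value of -1.98 ± 1.12 (0.295), AMS one of -1.24 ± 0.605 (0.233), MYB80 one of 0.26 ± 1.06 (0.899) and MS1 one of -1.59 ± 1.04 (0.361), or -0.73 (0.735) without WT CT replicate 3. TDF1 was called lower without 35S::asCCD7 CT replicate 1 (-4.65, 0.0387), and the MYB80 value was then -0.997 (0.592).

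In LTMH no regulator was called between a line and WT by edgeR. In 35S::nahG against WT, 0 of 2 tested genes were called, against 9.47% of the 20300 genes tested. MS1 alone had an unadjusted p below 0.05 (-2.48 ± 1.01, adjusted p = 0.111), and AMS had a value of -0.39 ± 0.328 (0.426). Without WT LTMH replicate 4, the library with 3 MS1 reads, MS1 was called lower in 35S::nahG (-3.05, 0.00361). MYB80, which did not pass the filter with all 6 libraries, was then also called (-3.02, 0.0458). TDF1 did not pass the filter in this comparison. Its 2 summed reads in 35S::nahG LTMH against 42 in WT LTMH, 31 of them in replicate 3, gave a 21.5-fold lower level. The interval of 5.59 to 183 covers counting error only, not the spread between libraries. TDF1 was called without the filter (0.0376) and by DESeq2, which called 1 of 5 (0.011). It was not called with all 8 groups in 1 fit (0.213). MYB80 had 5 summed reads in 35S::nahG LTMH against 29 in WT LTMH, 5.94-fold lower (2.27 to 19.7, counting error only). With no library left out, MYB80 was not called by DESeq2 (0.116), nor by edgeR without the filter (0.124) or with all 8 groups in 1 fit (0.478).

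Never ripe LTMH against WT LTMH gave 0 calls of 2 tested genes and 0 at an unadjusted p below 0.05 by edgeR, against 4.74% of the 20207 genes tested. AMS differed by 0.18 ± 0.721 (adjusted p = 0.904), or 0.68 (0.174) without Never ripe LTMH replicate 4, and MS1 by -2.09 ± 1.16 (0.293). DESeq2 called 1 of 5, TDF1 (0.0199), which had 2 summed reads in Never ripe LTMH against 42 in WT LTMH. That is a 20.9-fold lower level, with an interval of 5.43 to 178 that covers counting error only. WT LTMH replicate 3 held 31 of the 42 reads. By edgeR, TDF1 was not called without the filter (0.0708) or with all 8 groups in 1 fit (0.236).

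For 35S::asCCD7 LTMH against WT LTMH, 0 of 4 tested genes were called by edgeR, against 5.83% of the 20461 genes tested. MS10 was the gene nearest the threshold (1.73 ± 0.492, adjusted p = 0.0657) and the only one with an unadjusted p below 0.05. Each 35S::asCCD7 LTMH library was above each WT LTMH library for MS10, at 0.449 to 1.33 CPM against 0.208 to 0.319 CPM. DESeq2 called it (0.0306, 1 of 3 genes with an adjusted p), as did edgeR without 35S::asCCD7 LTMH replicate 1 (0.0439). AMS had a value of -0.79 ± 0.422 (0.257), MYB80 one of 1.33 ± 1.67 (0.631) and MS1 one of -0.96 ± 1.20 (0.63). Without 35S::asCCD7 LTMH replicate 2, which held 106 of the 107 MYB80 reads of its group, the MS1 value was -2.81 (0.159) and MYB80 did not pass the filter.

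Whether the LTMH response itself differed between a line and WT was tested as an interaction. In 35S::nahG, 2 of the 5 regulators were called, both with a stronger fall than in WT, among 10.4% of the 21098 genes tested (4.69% lower). The difference of log2 fold changes, 35S::nahG minus WT, was -6.40 ± 1.14 for MS1 (edgeR adjusted p = 0.00232) and -4.15 ± 1.01 for MYB80 (0.0124). The MS1 call held without any 1 of the 14 libraries and in every other setting. The MYB80 call was lost without WT LTMH replicate 2 (0.051) and with all 8 groups in 1 fit (0.271). AMS had a value of -1.27 ± 0.474 (0.0797) and was called without WT CT replicate 3 (0.026) or WT LTMH replicate 4 (0.0414). TDF1 had a value of -2.94 ± 1.69 (0.254). MS10 had a value of the other sign, 3.74 ± 2.36 (0.303), which was 1.60 (0.281) without WT CT replicate 3 and which DESeq2 called (0.0498).

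The Never ripe interaction gave 0 calls of 5 by edgeR and 0 at an unadjusted p below 0.05, against 6.07% of the 20895 genes tested. Its values ranged between -2.94 ± 1.83 for MS1 (adjusted p = 0.359) and 5.32 ± 2.65 for MS10 (0.242). The MS1 value was -0.80 (0.761) without Never ripe CT replicate 1, and the MS10 value 3.17 (0.0723) without WT CT replicate 3. DESeq2 called 1 of 5, MS10 (0.00476). The 35S::asCCD7 interaction gave 0 calls of 5 by edgeR as well, against 0.327% of the 21079 genes tested, with 1 gene at an unadjusted p below 0.05. That gene was MS10 (7.06 ± 1.71, adjusted p = 0.0764), which DESeq2 called (0.000518, 1 of 5), as did the fit of all 8 groups (0.00642) and edgeR without WT CT replicate 2 (0.0389) or 35S::asCCD7 LTMH replicate 3 (0.0408). Without WT CT replicate 3 its value was 4.91 (0.0911). Without 35S::asCCD7 LTMH replicate 2 the TDF1 value was -0.46 in place of 3.86 and the MYB80 value -4.77 in place of 1.07, neither called.

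The genes that make sporopollenin precursors and the exine are the downstream output of the late tapetum. The list of 10 such genes came from the pollen gene set of the study, and 7 passed the filter in each comparison. In LTMH against CT, 6 of 7 fell in 35S::nahG anthers (median log2 fold change -7.31, against 0.00577 over all genes tested), 4 of 7 in Never ripe anthers (-4.46, against 0.00931) and 4 of 7 in WT anthers (-3.08, against -0.00164). In 35S::asCCD7 anthers edgeR called 0 of 7 (-0.671, against 0.000159), with 1 at an unadjusted p below 0.05. Of all genes tested, 13.3% (35S::nahG), 4.32% (Never ripe), 8.83% (WT) and 3.08% (35S::asCCD7) were called lower. The count in WT anthers was 1 of 7 without CT replicate 1 or 3 or LTMH replicate 2 or 4, and that in 35S::nahG anthers was 5 or 6 without any 1 library. In Never ripe anthers it was 0 without LTMH replicate 1, 1 without CT replicate 3, 2 without LTMH replicate 3 or 4, and 3 without CT replicate 1, 2 or 4. In 35S::asCCD7 anthers 1 gene was called without CT replicate 4, and the median was 0.109 without CT replicate 3 and -2.33 without LTMH replicate 2. In 35S::nahG the fallen genes included the ABC transporter gene WBC27 (-10.14 ± 0.327, edgeR adjusted p = 6.18e-08), the fatty acid hydroxylase genes CYP703A2 (-9.81 ± 0.242, 1.9e-08) and CYP704B1 (-9.52 ± 0.232, 1.9e-08), and DRL1, which encodes a tetraketide reductase (-7.31 ± 0.212, 4.02e-08). These 4 genes also differed in their LTMH response between 35S::nahG and WT (4 of 7 called, all lower, median -4.22 against 0.0164). Of all genes tested there, 4.69% were called lower. The count of 4 did not change without any 1 library, and WBC27 differed by -8.23 ± 1.58 (0.00361).

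In CT, 5 of the 7 sporopollenin and exine genes were higher in 35S::nahG than in WT anthers (median 2.46, against 0.00367 over all genes tested), a count of 3 without WT CT replicate 4 and of 4 or 5 without any 1 other library, led by WBC27 (3.02 ± 0.594, edgeR adjusted p = 0.00384) and CYP704B1 (2.90 ± 0.707, 0.0107). In LTMH, 2 of 7 were lower, WBC27 (-5.20 ± 1.36, 0.0287) and CYP704B1 (-3.54 ± 1.07, 0.0464), a count that was 4 without WT LTMH replicate 4, 1 without WT LTMH replicate 2 or 3 and 0 without any 1 35S::nahG library. Of all genes tested in 35S::nahG against WT, 7.88% were called higher in CT and 4.78% lower in LTMH. In Never ripe and 35S::asCCD7 against WT edgeR called 0 of 7 at either temperature and in the interactions, with 0 to 3 at an unadjusted p below 0.05. In Never ripe it called 2 of 7, both lower, in LTMH without WT LTMH replicate 4, and 1 of 7, lower, in CT without WT CT replicate 2 or Never ripe CT replicate 1. The summed level of the list was 13017 to 18454 CPM in 35S::nahG CT anthers and 1350 to 8499 CPM in WT CT anthers. Some libraries that stood apart for MS1 did so here as well, with 5333 CPM in Never ripe CT replicate 1 against 1032 to 2070 CPM in the other Never ripe CT libraries, 849 CPM in 35S::asCCD7 LTMH replicate 2 against 159 to 234 CPM in the others, and 94.6 CPM in 35S::asCCD7 CT replicate 4. The part of this difference between libraries in the regulators' results was not tested.

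**Figure D3:**
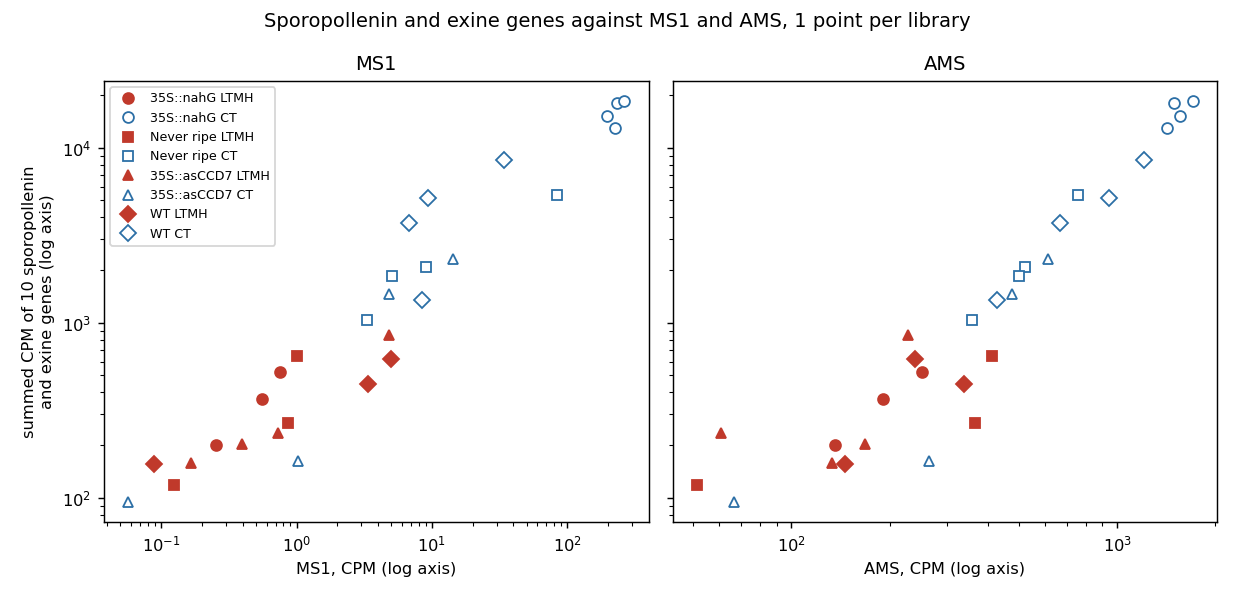
Summed CPM of the 10 sporopollenin and exine genes (log axis) against the CPM of MS1 (left) and AMS (right, log axes), 1 point per library, with filled red symbols for LTMH and open blue symbols for CT and 1 symbol shape per line. The 35S::nahG CT libraries lie at the top right at 13017 to 18454 CPM, and 35S::asCCD7 CT replicate 4, at 94.6 CPM, lies among the LTMH libraries.

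Genes of earlier steps and of the microspores were read from the same fits. Among the 5 receptor kinase genes that specify or maintain the tapetum, EMS1 and BAM2-2 fell in LTMH in 35S::nahG (-1.16 ± 0.106 and -1.19 ± 0.103) and in WT anthers (-0.78 ± 0.165 and -1.04 ± 0.0856), while BAM2-2 alone fell in 35S::asCCD7 (-1.02 ± 0.153) and 0 of 5 were called by edgeR in Never ripe, with 3 at an unadjusted p below 0.05. Their summed level stayed between 335 and 461 CPM in all libraries. EMS1, the receptor kinase gene needed to form the tapetum in Arabidopsis, was called in CT against WT, higher in 35S::nahG (0.89 ± 0.133, edgeR adjusted p = 0.000923) and lower in Never ripe (-0.67 ± 0.197, 0.0321). Of the meiosis list, 2 of 5 tested genes fell in 35S::nahG and 1 of 6 in WT anthers in LTMH, PS1 in both (medians -0.173 and -0.182). Of the microspore and pollen list, 3 of 8 tested genes were higher and 2 lower in LTMH in 35S::nahG anthers, against 2 of 7 higher and 1 lower in WT anthers (medians 0.400 and 0.370). Over all genes tested, 14.6% were higher and 13.3% lower in 35S::nahG, and 9.05% and 8.83% in WT, so that counts of 1 or 2 in lists this small are not read as results about them. The microspore and pollen list had a summed level of 129 to 156 CPM in 35S::nahG LTMH against 91.3 to 188 CPM in 35S::nahG CT, and 111 to 173 CPM in WT LTMH against 167 to 240 CPM in WT CT. Between 1 and 5 of its 12 genes had at most 3 reads in every library of a group. The part of the microspores in the regulators' differences was not tested.

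The genes whose pattern was most like that of each regulator were ranked by Pearson's r of log2 CPM over the 29 libraries, among genes with a mean of at least 1 CPM. These r are descriptions, since libraries of 1 group are not independent and large group differences set them. MS1 was most like Solyc06g072780 (r = 0.976), CYP704B1 (0.975) and DRL1 (0.973). AMS was most like Solyc02g065670 (0.980), Solyc01g097660 (0.971) and Solyc10g079060 (0.969). MYB80 was most like Solyc12g005560 (0.944), WBC27 (0.943) and Solyc08g005610 (0.937). TDF1 was most like Solyc04g081520 (0.936), Solyc11g028040 (0.908) and Solyc03g005220 (0.890). MS10 was most like Solyc02g079815 (0.847), Solyc07g008550 (0.842) and Solyc10g005500 (0.813). The first of these follows MS10 in the numbering of chromosome 2. Counting did not use the strand, and whether the pair overlaps was not checked. Reads of 1 gene counted for the other can thus not be excluded.

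Among the regulators themselves, AMS, MYB80 and MS1 were most alike. TDF1, MS10 and MYB80 held few reads in many libraries, and counting error can lower their r. AMS and MS1 had r = 0.909, MYB80 and MS1 0.893, and AMS and MYB80 0.830 (Pearson, log2 CPM, n = 29 libraries). TDF1 was closer to MYB80 (0.721) and MS10 (0.698) than to MS1 (0.554) and AMS (0.512). MS10 had r between 0.522 and 0.614 with AMS, MYB80 and MS1.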

How the data were processed

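Per the study's methods, paired-end reads were aligned with hisat2 2.0.5 and counted per gene with featureCounts 1.5.0-p3 at default settings, which ignore the strand. Raw counts were deposited by the authors, and the deposited FPKM values divide them by gene length and depth. Counts were used for all tests, CPM (reads per 1000000 counted) for levels, and FPKM only between genes. Tests used edgeR 4.0.16 in R 4.3.3 (filterByExpr with a minimum count of 10, TMM, quasi-likelihood) on the libraries of each comparison, with DESeq2 1.42.0 as an alternative. SE is the log2 fold change over the root of F. Total counts per library, 32273189 to 42353956, limit genes below about 3 reads. Intervals are 95% exact binomial on reads summed over libraries, so they cover counting error and not the spread between libraries. Scripts were tested on simulated data.

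The members and lists were chosen with earlier results of these data known. All members are named in every comparison, at most 4 called genes per list, and 3 most similar genes per member. Replicate numbers were shared between groups. Deviations of same-numbered libraries correlated above 0.1 in all 4 pairs for 35S::asCCD7 against WT in CT (0.147 to 0.421). Both pairs of Never ripe against WT in LTMH did so too (0.154 and 0.466). No other comparison showed this, and the blocked fit changed no member's call in these. No promoter sequence or coordinate was used here.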

Additional observations from a re-analysis of the deposited data

Results flagged for a closer look

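In groups of 4 libraries, 8 values of 25 member and group combinations lay far from the other 3 libraries. The rule flags about 1 in 20 when values are independent and normally distributed. CPM of genes with few reads need not be so, and no excess over chance is read from this count. They were MS10 in WT CT replicate 3 (66.4 CPM), MS1 in WT CT replicate 3 (34.0 CPM), MS1 (83.2 CPM) and MYB80 (1.82 CPM) in Never ripe CT replicate 1, TDF1 in 35S::asCCD7 CT replicate 1 (2.14 CPM), and TDF1 (6.25 CPM), MYB80 (3.07 CPM) and MS1 (4.86 CPM) in 35S::asCCD7 LTMH replicate 2. Each was the highest library of its group, and 4 libraries held all 8 values.

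The LTMH response differed between 35S::nahG and WT by edgeR's interaction test for MS1 (difference of log2 fold changes -6.40, adjusted p = 0.00232) and MYB80 (-4.15, 0.0124).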

How the results depend on the processing

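Of 54 member tests, 267 values under another setting and 498 with 1 library left out were compared with the main value. The outcome, called or not called, and its direction held in 246 and 436 of them. These counts include members called in neither fit, so they do not measure how firm the calls were. A call was lost in 8 and 29, gained in 8 and 10, and the sign changed in 5 and 23, never for a member that was called. With all 8 groups in 1 fit, the number of members called was 2 in place of 4 for LTMH against CT in WT, 2 in place of 4 for 35S::nahG against WT in CT, 1 in place of 2 for the 35S::nahG interaction and 1 in place of 0 for that of 35S::asCCD7. DESeq2 called 1 in place of 0 for each of the 3 lines against WT in LTMH and for the Never ripe and 35S::asCCD7 interactions, and 3 in place of 2 for Never ripe against WT in CT (MYB80 gained) and for the 35S::nahG interaction (MS10 gained). Omitting the filter gave 1 call in place of 0 for 35S::nahG against WT in LTMH. The cause was not tested.

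With 1 library left out, the number called ranged between 2 and 4 (WT), 0 and 1 (Never ripe and 35S::asCCD7) and stayed at 5 (35S::nahG) for LTMH against CT. It ranged between 2 and 5 for 35S::nahG, 2 and 3 for Never ripe and 0 and 1 for 35S::asCCD7 against WT in CT, and between 0 and 2 for 35S::nahG and 0 and 1 for 35S::asCCD7 against WT in LTMH. In the interactions it ranged between 1 and 3 (35S::nahG) and 0 and 1 (35S::asCCD7), and it stayed at 0 in both Never ripe comparisons not yet named.

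With the replicate number as a block, WT LTMH against CT gave 3 members (MS1 gained at adjusted p = 0.0399, TDF1 and AMS lost at 0.0815 and 0.0515) and 35S::nahG against WT in CT also 3 (MS10 lost at 0.11). It changed no other call. In Never ripe against WT in LTMH the 2 pairs had correlations of 0.154 and 0.466. Outside that comparison and 35S::asCCD7 against WT in CT the numbers did not pair the libraries, with lowest correlations between -0.371 and -0.003.

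Signs of members not called changed as follows. The MS1 value in Never ripe against WT in CT was -0.16 with the block and -1.27 to 1.71 without 1 library. The MYB80 value in 35S::asCCD7 against WT in CT was -0.90 with the block and -0.997 to 0.667 without 1 library. The AMS value in Never ripe against WT in LTMH was -0.38 with the block and -0.24 to 0.68 without 1 library. In the Never ripe interaction TDF1 was -0.58 with the block, -0.085 by DESeq2 and -0.30 to 1.40 without 1 library, and MYB80 was -1.17 to 1.28. In the 35S::asCCD7 interaction the ranges without 1 library were -0.46 to 6.52 for TDF1, -4.77 to 2.31 for MYB80 and -1.21 to 1.96 for MS1. Leaving out each library for the sporopollenin and exine list was chosen after seeing the data.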
